A study of Zea mays with 48 samples.

Results

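In endosperm of the maize cross 301/005, 62 of 3585 probes measured a transcript that was higher, or lower, in both reciprocal hybrids than the average of their inbred parents, while the mean difference between those parents stayed under a set limit. Of these 62 probes, 48 lay above the parental average and 14 lay below it. Each probe was chosen from measured values. A probe was eligible if all 4 arrays of a replicate gave a value in at least 3 replicates, which 2226 probes did. It was then kept if its mid-parent difference had 1 sign in every such replicate and a mean of at least 0.35 in size on the log2 scale. The mean difference between the inbreds had to stay under 0.8 and that between the reciprocal hybrids under 0.5. These values of the 301/005 endosperm are therefore given as a description and were not tested.

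The series measured RNA of endosperm and embryos isolated 6 days after pollination on 48 2-colour arrays. The groups were the reciprocal hybrids 301x005 and 005x301 with the inbreds 301 and 005, and the reciprocal hybrids 301x250 and 250x301 with the inbreds 301 and 250. The labels write the lines in full as UH301, UH005 and UH250. All groups shared glasshouse growth, and the plants of a set were selfed and crossed on the same day. The first-named line of a hybrid is taken as its seed parent. In a replicate, called a loop here, both hybrids were each hybridised against both inbreds, which takes 4 arrays. There are 4 loops per tissue for cross 301/005 and 2 for cross 301/250. Nothing in the labels says how many kernels or ears made up an RNA sample, and the RNA was amplified by PCR before labelling. Because the files hold ratios within a tissue, defining markers of endosperm or embryo give no level that could check the tissue label. In bulk tissue, fewer cells of a type and less RNA per cell cannot be told apart.

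Endosperm is the nutritive tissue of the cereal kernel, and it receives more copies of the maternal than of the paternal genome. If a gene's alleles act additively, a hybrid is often described as lying between its parents. Expression outside that expectation is called non-additive, and it has long been discussed beside heterosis, in which hybrids outgrow or outyield the lines they came from. The mid-parent difference used here is the mean of the 4 hybrid-over-inbred log ratios of a loop, so it weighs both hybrids and both inbreds equally. A positive value means higher in the hybrids. The ratio was read as channel 1 over channel 2, which is likely from the titles but not stated, and all signs in the text would swap if it ran the other way.

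Of the 2226 eligible probes, 447 had 1 sign in every loop, 226 above the mid-parent and 221 below it. The threshold of 0.35 kept 95 of them, 74 above and 21 below, and the limit on the inbred difference kept 74. The limit on the reciprocal difference left the 62. The upper group is 2.16% of the eligible probes and the lower group 0.629%, both fixed by the rule itself. Just inside the threshold were NH1 at 0.37, P_B16 at 0.37 and S_CC189 at 0.37 above the mid-parent, and P_CHA116 at -0.36, SA10 at -0.37 and QB7 at -0.38 below it. Just outside were S_CC198 at 0.35, S_CC137 at 0.35 and S_CCEC2A5 at 0.33 above, and KB12 at -0.34, DD7 at -0.34 and P_605-004D02 at -0.34 below. The 2 sides of the threshold are thus close to each other. A complete record in 4 loops was present for 23 of the 48 upper probes and for 0 of the 14 lower ones.

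**Figure D1:**
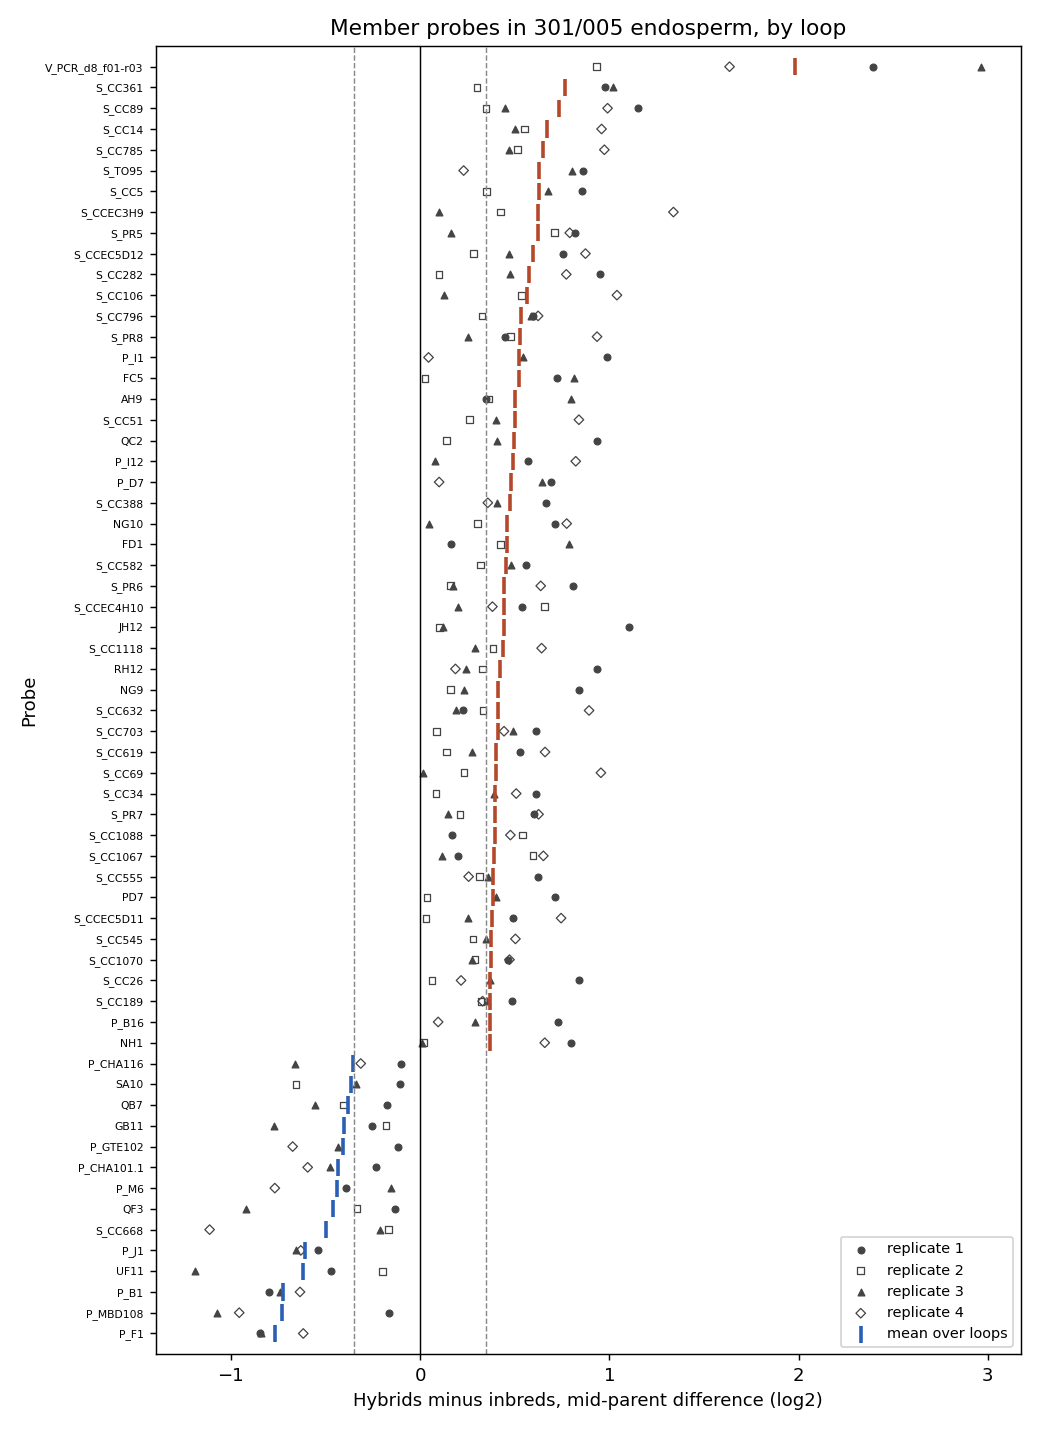
Mid-parent difference (hybrids minus inbreds, log2) of each of the 62 probes in every complete loop of 301/005 endosperm, with filled symbols for odd and open symbols for even replicates, coloured ticks for the mean and dashed lines at the threshold of 0.35. V_PCR_d8_f01-r03 stands apart at a mean of 1.98, while the other upper means lie between 0.37 and 0.77 and the lower ones between -0.77 and -0.36.

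Within the 301/005 endosperm the upper probes had a median mid-parent difference of 0.46 and the lower ones of -0.45. The inbred difference (301 minus 005), which the rule limits, had a median size without sign of 0.27 for upper and 0.26 for lower probes, against 0.24 for all eligible probes. Single loops went further, and in loop 2 its signed median was -0.64 for upper and -0.85 for lower probes, larger in size than the mid-parent medians of 0.31 and -0.27 there. The reciprocal difference (301x005 minus 005x301) had a median of 0.06 for upper and -0.13 for lower probes. For 44 of 48 upper probes and 12 of 14 lower ones, the mean of each hybrid lay on the same side of each inbred. The threshold and limits of the rule make such counts likely. The order of the inbreds was mixed, since 301 was the higher inbred for 19 of the 48 upper and 6 of the 14 lower probes. Single arrays were noisier than these means. Of the upper probes' array values 83.7% were on the upper side, and of the lower probes' values 83.9% on the lower side. Every single array value was on 1 side for 2 upper and 2 lower probes.

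The largest value among the 62 belonged to V_PCR_d8_f01-r03. Its ID contains d8, a name that RefSeq lists for DWARF8, a DELLA protein that represses gibberellin responses in maize, but whether the spot reports that gene is not stated. In 301/005 endosperm its mid-parent difference was 2.39, 0.93, 2.97 and 1.64 in the 4 loops, with a mean of 1.98 ± 0.89 (SD, n = 4 loops). All 16 array values were above 0, between 0.09 and 4.01. The arrays of V_PCR_d8_f01-r03 differed strongly from each other, with 0.09 for 005x301 over 301 in loop 4, and 0.11 for 005x301 over 301 and 0.21 for 301x005 over 005 in loop 2. In 301/250 endosperm, which the rule did not use, the loop values were 2.41 and 1.85, and 8 of 8 arrays were above 0. The mean of V_PCR_d8_f01-r03 there, 2.13 ± 0.73 (SE, n = 2 loops), did not pass the test over all probes (limma adjusted p = 1.00).

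In embryos V_PCR_d8_f01-r03 was less uniform. Cross 301/005 gave -1.26 in loop 1 and 2.49 in loop 3, so its complete embryo loops pointed in opposite directions. Cross 301/250 gave 5.04 in its 1 complete loop, where all 4 arrays were between 3.78 and 6.21. In the other 301/250 embryo loop the 3 arrays with a value read 1.66, -2.17 and 3.35. Another probe with d8 in its ID, V_d8_fo4-r04, shared the direction of V_PCR_d8_f01-r03 in some loops and not in others. In 301/005 endosperm the incomplete loops of V_d8_fo4-r04 gave mid-parent values of 1.24 in loop 1, 1.56 in loop 3 and -0.30 in loop 4, and its 1 complete loop, loop 2, gave 0.00. In 301/250 endosperm its 2 loops measured 0.15 and -0.58.

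The next largest upper probes were all of the S series of IDs. S_CC361 measured 0.98, 0.30 and 1.02 in loops 1, 2 and 3, with a mean of 0.77 ± 0.40 (SD, n = 3). S_CC89 measured 1.15, 0.35, 0.45 and 0.99, with a mean of 0.74 ± 0.40 (SD, n = 4). S_CC14, S_CC785 and S_TO95 averaged 0.67, 0.65 and 0.63 over 3 loops each. The loop values of S_CC361 and S_CC89 were lowest in loop 2. The closest agreement between loops was seen at smaller sizes. S_CC189 measured 0.48, 0.32, 0.35 and 0.33, and S_CC1070 0.46, 0.29, 0.27 and 0.47. S_CC555 gave 0.62, 0.32, 0.36 and 0.26, and S_CC796 0.60, 0.33, 0.59 and 0.62. S_CC796 was the single probe among these 4 with all of its 16 array values above 0, from 0.05 to 1.12.

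Among the lower probes P_F1, P_B1 and P_J1 were both large and even. P_F1 measured -0.85, -0.84 and -0.62 in loops 1, 3 and 4, with all 14 array values below 0 and a mean of -0.77 ± 0.13 (SD, n = 3). P_B1 measured -0.80, -0.74 and -0.63, and 13 of its 14 array values were below 0. P_J1 measured -0.54, -0.66 and -0.63, again with 13 of 14 arrays below 0. The SD over loops of P_B1 was 0.08 and that of P_J1 was 0.06, among the smallest of the named probes. UF11, by contrast, had -0.47, -0.20 and -1.19 in loops 1, 2 and 3, and S_CC668 had -0.17, -0.21 and -1.11 in loops 2, 3 and 4, so 1 loop carried much of either mean. IDs such as P_F1, NG10 or S_CC361 look like plate positions and give no gene, and no role can be stated for them.

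Of the 62 probes 3 had IDs that RefSeq's maize gene table matched to 1 gene, all 3 on the lower side. P_MBD108 carries the name of mbd108, of the methyl-CpG-binding domain family whose members can bind methylated DNA. It measured -0.17, -1.07 and -0.96 in loops 1, 3 and 4 of 301/005 endosperm, with a mean of -0.73 ± 0.49 (SD, n = 3). Its arrays overlapped 0, with 9 of 14 values below it, and ran from -2.31 to 0.64. In loop 4, 301x005 and 005x301 read 0.01 and -1.79 over 301, and -2.31 and 0.26 over 005. P_GTE102 carries the name of a bromodomain gene, a family that binds acetylated histones, and measured -0.12, -0.43 and -0.67 with 11 of 14 arrays below 0. P_CHA101.1 measured -0.23, -0.48 and -0.59. By their loop values all 3 were near 0 in 301/250 endosperm. There P_MBD108 had -0.03 and -0.06, P_GTE102 -0.08 and 0.00, and P_CHA101.1 -0.08 and 0.13. The loop 2 value of P_MBD108 averaged arrays from -1.61 to 1.78, so it hides a wide spread.

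Chromatin genes were looked at as a wider list, because MBD108 and GTE102 belong to it. The 8 gene lists looked at also include imprinted genes and a mixed list with housekeeping and heat shock genes. Of the 99 probes in all 8 lists, 41 were eligible for the rule and 2 were chosen. Over all probes the rule chose 62 of 2226 eligible. Below the mid-parent in 301/005 endosperm were 51.8% of all eligible probes, with a median of -0.01. Among eligible probes, the bromodomain, SET-domain and remodelling list had 7 of 8 below it with a median of -0.15. The HMG and NFE list had 6 of 6 below it with a median of -0.19, and the nucleosome assembly list 6 of 7 with a median of -0.16. The methyl-CpG-binding list had 3 of 4 below, with a median of -0.19. DNA methyltransferase probes were below in 5 of 7 cases and histone deacetylase probes in 3 of 5, with medians of -0.11 and -0.09. These medians are smaller than the rule's threshold. In 301/250 endosperm limma called 0 probes of these lists, as it called 0% of all 1890 probes tested. FIE2, a Polycomb group gene with a mid-parent difference of -0.87, was the 1 eligible probe of the imprinted list. It missed the 62 through its reciprocal difference of -0.53. S_MET1, of the DNA methyltransferase list, lay above the mid-parent at 0.51, and its reciprocal difference of 0.78 was also over the limit. RefSeq's table matched P_DMT101 and S_DMT101 to the same gene, and neither was eligible, with 2 complete loops each. P_DMT101 measured -0.53 and S_DMT101 0.01, so the probes of this gene did not share a direction. Many probes of these lists have IDs that begin with P_, whose complete values here rest on loops 1, 3 and 4. No share below the mid-parent was taken for P_ probes alone.

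The prefixes of the IDs differed between the upper and lower probes. IDs that begin with S_ made up 68.8% of the upper probes (33 of 48) and 31.3% of all eligible probes. The share was 7.14% among the lower probes, where S_CC668 was the single case. IDs that begin with P_ made up 57.1% of the lower probes (8 of 14), 8.33% of the upper ones and 12.2% of the eligible ones. Within the S series, S_CCEC probes gave 4 of 13 eligible and S_PR probes 4 of 11, against 24 of 618 for S_CC. P_ probes have no value on 2 arrays of loop 2, so all 12 P_ probes among the 62 rest on loops 1, 3 and 4. They had to keep 1 sign in those loops only, and how far this shaped the P_ shares was not tested. The labels do not say what the prefixes stand for.

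The dye moved with the mid-parent difference over all probes, and this touches every value above. Odd loops carried the inbreds in Cy3 and even loops the hybrids. Across probes in 301/005 endosperm, the mid-parent difference of loops with the same orientation correlated at r = 0.63 (loops 1 and 3, 2302 probes) and r = 0.41 (loops 2 and 4, 1373 probes). Loops of opposite orientation gave r = -0.44 (1 and 2, 1752 probes), 0.02 (1 and 4, 1523 probes), -0.42 (2 and 3, 1976 probes) and -0.15 (3 and 4, 1735 probes). Loops share probes and the array platform, and probes are not independent, so these are descriptions. The upper probes had medians of 0.50 in odd and 0.40 in even loops, and the lower ones -0.45 in odd and -0.62 in even loops. All 62 had values in both orientations. The part of the dye in single values was not tested.

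A loop that took no part in the choice gives a further reading of the same measure. The rule was therefore applied to 3 loops of 301/005 endosperm at a time, and the chosen probes were read in the loop left out. Such a reading is not fully independent, because each loop shares its dye orientation with a loop used to choose. Loops of the same orientation correlated at r = 0.63 and r = 0.41 over all probes. For probes chosen above the mid-parent, 97 of 138 readings (70.3%) were above it again. The same probe can enter this count in more than 1 loop, and probes on an array are not independent, so it is a description. The agreement was uneven over loops. It was 21 of 22 in loop 1 (55.6% of all probes eligible in the other 3 loops were above), 27 of 35 in loop 3 (57.5%) and 24 of 27 in loop 4 (40.8%). In loop 2 it was 25 of 54 (41.6%), close to the share over all probes. For probes chosen below the mid-parent, 13 of 28 readings (46.4%) were below it again. Those were 2 of 8 in loop 1 (44.4%), 7 of 9 in loop 2 (58.4%), 1 of 2 in loop 3 (42.5%) and 3 of 9 in loop 4 (59.2%). The probes chosen above thus kept their side more often than all probes in loops 1, 3 and 4. Those chosen below did not do so as a group.

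**Figure D2:**
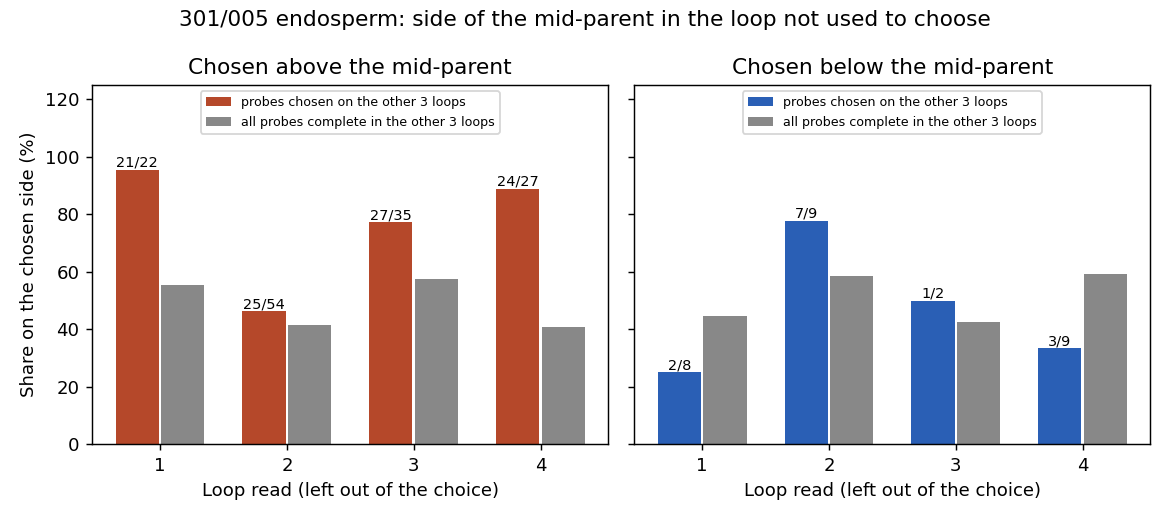
Share of readings on the chosen side (%) in the loop that was left out when the rule was applied to the other 3 loops of 301/005 endosperm, for the chosen probes (coloured, with counts) and for all probes complete in the other 3 loops (grey). Probes chosen above exceeded the grey bars most in loops 1 and 4, at 21 of 22 and 24 of 27. Probes chosen below stayed under the grey bars in loops 1 and 4, at 2 of 8 and 3 of 9.

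A second reading came from loops in which 1 or 2 arrays had no value. The arrays of a diagonal pair still give the mid-parent difference there, with the same limit on independence. The upper probes were above in 17 of 24 such readings (70.8%), against 44.8% over 1073 readings of eligible probes. The lower probes were below in 9 of 14 (64.3%), against 55.2%. Part of the array error was read from the closure of a loop. This combination of the 4 arrays is 0 without error and is independent of the 3 differences used by the rule. A dye effect shared by the 4 arrays, or a deviation of 1 RNA sample, cancels in the closure but enters the mid-parent difference. In loops 1 and 3 the upper probes had a median absolute closure of 0.28 and 0.19, against 0.33 and 0.27 for all probes. In loop 4 it was 0.87 against 0.43, with a signed median of -0.86, so the upper probes shared an array deviation there. In loop 2 it was high for both, at 0.73 for upper probes and 0.77 for all probes. The lower probes had a median absolute closure of 0.56, 0.69, 0.57 and 0.64 in loops 1 to 4, above that of all probes in loops 1, 3 and 4. Divided by the 4 arrays, which puts it on the scale of a mid-parent difference, the closure of loop 4 was 0.22, where the median mid-parent difference was 0.65. That closure leaves out any shared dye effect.

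The other cross in the same tissue asked whether these probes also left the mid-parent when 250 replaced 005. In 301/250 endosperm 34 of 48 upper probes had a mean above it, against 46.6% of all 2948 probes with a value. Their median was 0.11, against -0.01 for all probes. The 2 loops differed, with 20 of 45 upper probes above it, median -0.02, in loop 1, and 35 of 48 above it, median 0.21, in loop 2. Of the lower probes 11 of 13 were below the mid-parent (53.4% of all probes), with a median of -0.08, and 7 of 13 were below when loop 1 was left out. Limma called 0 of 38 upper and 0 of 11 lower probes tested (0% of 1890 probes called), and 1.27% of all probes had an unadjusted p under 0.05. V_PCR_d8_f01-r03 was the 1 member among them. The upper means of 301/250 endosperm ran from -0.39 to 2.13 and the lower ones from -1.25 to 0.02.

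The even lower probes of 301/005 endosperm differed between the 301/250 endosperm loops. P_F1 measured 0.02 and -0.81 in loops 1 and 2, P_B1 0.21 and -0.50, and P_J1 0.07 and -0.87. All 3 were near or above 0 in loop 1 and below it in loop 2. The exception in size was P_CHA116, whose 1 complete loop gave -1.25 and whose 7 array values were all below 0, from -1.81 to -0.18. NG10 kept its side with 0.21 and 0.44, and S_CCEC5D12 with 0.09 and 0.36.

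**Figure D3:**
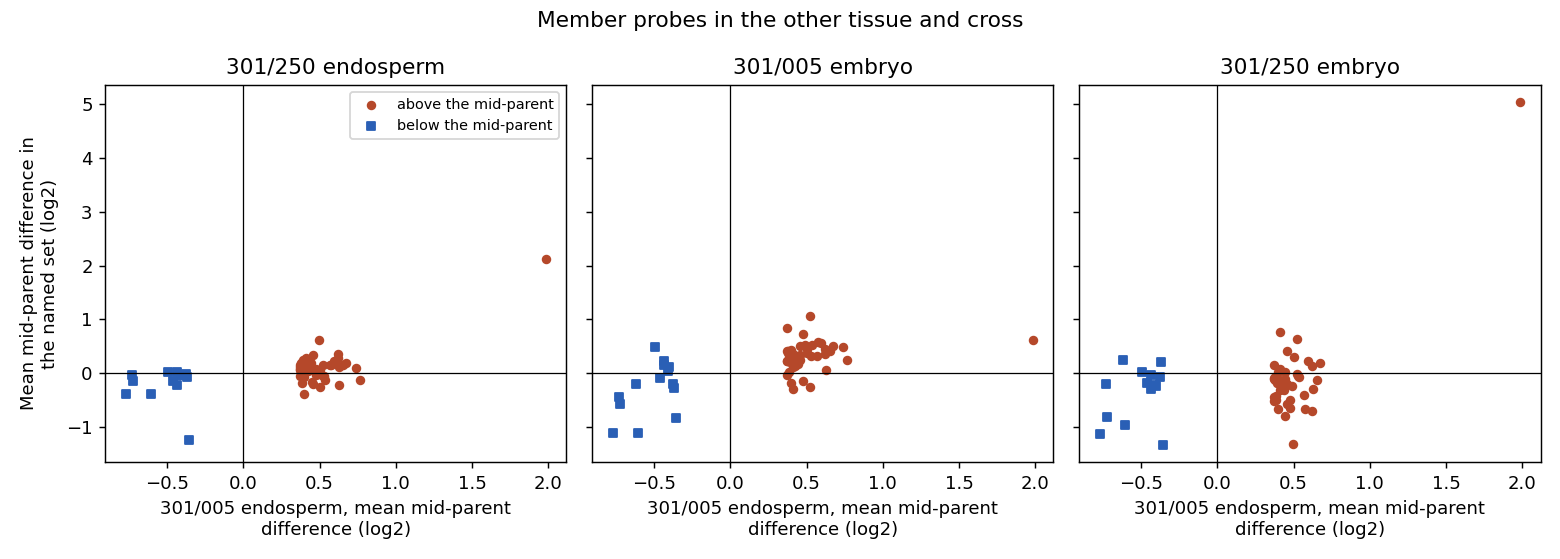
Mean mid-parent difference (log2) of each probe in 301/250 endosperm, 301/005 embryo and 301/250 embryo, against its mean in 301/005 endosperm, with circles for upper and squares for lower probes. Upper probes lay above 0 for 34 of 48, 42 of 47 and 12 of 43 in the 3 panels, and V_PCR_d8_f01-r03 is the far right circle.

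In embryos of the same cross, 42 of 47 upper probes were above the mid-parent, against 50.9% of 3416 probes with a value. Their median was 0.34, against 0.00 for all probes, and among S series probes 31 of 33 were above, against 50.0% of all S series probes. Of the lower probes 9 of 14 were below (49.1% of all probes), with a median of -0.21. Limma called 0 of 33 upper and 0 of 6 lower probes tested (0% of 1752 probes), while 15 of the 33 had an unadjusted p under 0.05, all above 0, a state that 3.25% of all probes shared. The lowest adjusted p among the upper probes was 0.596. S_CCEC5D12 had 0.07, 1.00 and 0.59 in loops 1, 2 and 3 (0.60 ± 0.17 SE with the dye term), and S_CC796 had -0.02, 0.99 and 0.60 (0.57 ± 0.17 SE), each with that adjusted p. Both were highest in loop 2 and close to 0 in loop 1.

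The embryo loops of 301/005 did not move alike. Of the upper probes 6 of 36 were above the mid-parent in loop 1, with a median of -0.15. In loop 2 this was 31 of 34 with a median of 0.85, in loop 3 it was 34 of 38 with a median of 0.35, and in loop 4 it was 7 of 7 with a median of 0.37. Loop 4 had few complete probes, 760 over the whole array set. Loop 2 stood apart by its arrays. The upper probes' array medians were 1.22 (301x005 over 301) and 1.73 (005x301 over 301), but -0.09 (301x005 over 005) and 0.25 (005x301 over 005). Inbred 301 was therefore the low RNA there, and 1 of 34 upper probes had an inbred difference above 0, with a median of -1.44. Without loop 2, 32 of 46 upper probes were above the mid-parent (53.7% of all probes), and their median was 0.12, and 0 of the 7 that could still be tested had an unadjusted p under 0.05.

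The 1 probe among the 62 to pass the loop-level limma test outside the choosing set was NG10, in the inbred difference of 301/005 embryos. NG10 was lower in inbred 301 than in inbred 005 by a difference of -1.61 ± 0.25 (SE, n = 2 loops, limma adjusted p = 0.0352), with both loops negative. That is 1 of 34 upper and 0 of 6 lower probes tested, where 1% of 1892 probes passed. NG10 rests on loops 2 and 3, and leaving out either loop ended the call, as did leaving out loop 1, where NG10 itself has no complete value. Its inbred difference in 301/005 endosperm averaged 0.04, as the limit of the rule required it to be small. In the mid-parent difference NG10 was on the upper side in both embryo loops, at 0.68 and 0.33.

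In embryos of cross 301/250 the upper probes lay on the other side. There, 12 of 43 had a mean above the mid-parent, against 46.6% of 2694 probes, and the median was -0.14. The loops again disagreed, with 3 of 26 above it, median -0.63 in loop 1, and 24 of 36 above it, median 0.20 in loop 2. In loop 1 the upper probes also had a median absolute closure of 1.30, against 0.54 for all probes, which is 0.33 when divided by the 4 arrays. Of the lower probes 11 of 14 were below the mid-parent (53.4% of all probes), with a median of -0.21. Limma called 0 of 19 upper and 0 of 10 lower probes tested (0% of 1460 probes), and 1 upper and 3 lower probes had an unadjusted p under 0.05, all below 0, as 3.56% of all probes had.

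Those 3 lower probes were P_F1, P_B1 and P_J1. P_F1 measured -0.65 and -1.61 in the 301/250 embryo loops, a mean of -1.13 ± 0.23 (SE, n = 2 loops). P_J1 measured -0.75 and -1.20, a mean of -0.97 ± 0.18 (SE, n = 2), and P_B1 -0.09 and -1.54, a mean of -0.82 ± 0.27 (SE, n = 2). Each had a limma adjusted p of 0.702 over all probes and so did not pass. In 301/005 embryo loop 3 they measured -1.12, -1.11 and -0.61 in the order P_F1, P_J1 and P_B1, and P_B1 had -0.55 in loop 4. With 301/250 endosperm loop 1 as the exception, every complete loop of these 3 probes was therefore below 0 in all 4 sets. P_CHA116 gave -0.85 in its 1 complete loop of 301/005 embryos and -1.34 in that of 301/250 embryos, where 7 of 7 arrays were below 0 (-2.24 to -0.68). It had too few complete loops for the loop-level test there. A fit of single arrays with the loop as a block passed P_CHA116 in 301/250 embryos (-1.39 ± 0.22 SE, limma adjusted p = 0.00219).

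The largest shared movement of the upper probes in 301/250 embryos was between the reciprocal hybrids. Of 19 upper probes tested, 17 were higher in 301x250 than in 250x301, and the median difference was 0.99, against 0.04 over all probes. In the loop-level fit of all probes none of the 19 passed the adjustment, which 0.249% of 1604 probes did, and the lowest limma adjusted p was 0.086, for S_CC1070 at 1.16 ± 0.27 (SE, n = 2 loops). With probes that have a value on every array, 377 in all, S_CC619, named here after its values were seen, passed at 0.99 ± 0.26 (SE, n = 2 loops, limma adjusted p = 0.0195). At an unadjusted p under 0.05 there were 14 of the 19, all higher in 301x250, as were 13.7% of all probes. Both loops showed it. In loop 1, 24 of 26 upper probes were higher in 301x250 with a median of 0.81, and in loop 2 this was 29 of 36 with a median of 0.76. The lower probes did not share it, with 7 of 10 lower in 301x250 and a median of -0.20. The upper probes' reciprocal difference in 301/005 endosperm had been limited by the rule, and its loop medians were -0.28, 0.47, 0.13 and -0.15.

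The remaining inbred and reciprocal differences outside the choosing set gave few small p-values among the 62 probes. In 301/250 endosperm the inbred difference had an unadjusted limma p under 0.05 for 2 of 45 upper and 1 of 12 lower probes (6.29% of 2177 probes), and the reciprocal difference for 2 upper and 0 lower probes (1.38%). In 301/250 embryos the inbred difference did so for 1 of 19 upper and 2 of 10 lower probes (7.73% of 1604). The 2 lower probes were P_F1 and P_J1, at -0.55 and -0.59, both lower in inbred 301 than in inbred 250. In 301/005 embryos the inbred difference did so for 3 of 34 upper and 1 of 6 lower probes (13.3% of 1892), and the reciprocal difference for 1 upper and 0 lower probes (6.45%). Apart from NG10, limma called 0 of those tested after adjustment in these comparisons. The signs were less even than these counts. The upper probes' inbred difference was below 0 for 24 of 34 in 301/005 embryos, with a median of -0.34, and above 0 for 16 of 19 in 301/250 embryos, with a median of 0.26.

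The upper probes thus moved as a group on arrays that took no part in choosing them, but not in 1 fixed way. On the 32 arrays outside 301/005 endosperm, their array median ran from -1.15 to 1.73, while that of all probes stayed between -0.20 and 0.11. On 16 of the 32 arrays at least 75% of the upper probes were on 1 side of 0, which held for all probes on 0 of the 32. The lower probes did so on 12 of the 32, with fewer probes per array. With array medians of all probes this near 0, such a share was hardly open to all probes. The upper probes were also few on some arrays, such as 8 for 005x301 over 005 in 301/005 embryo loop 4. The typical array median, without its sign, was 0.27 for upper, 0.16 for lower and 0.02 for all probes.

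**Figure D4:**
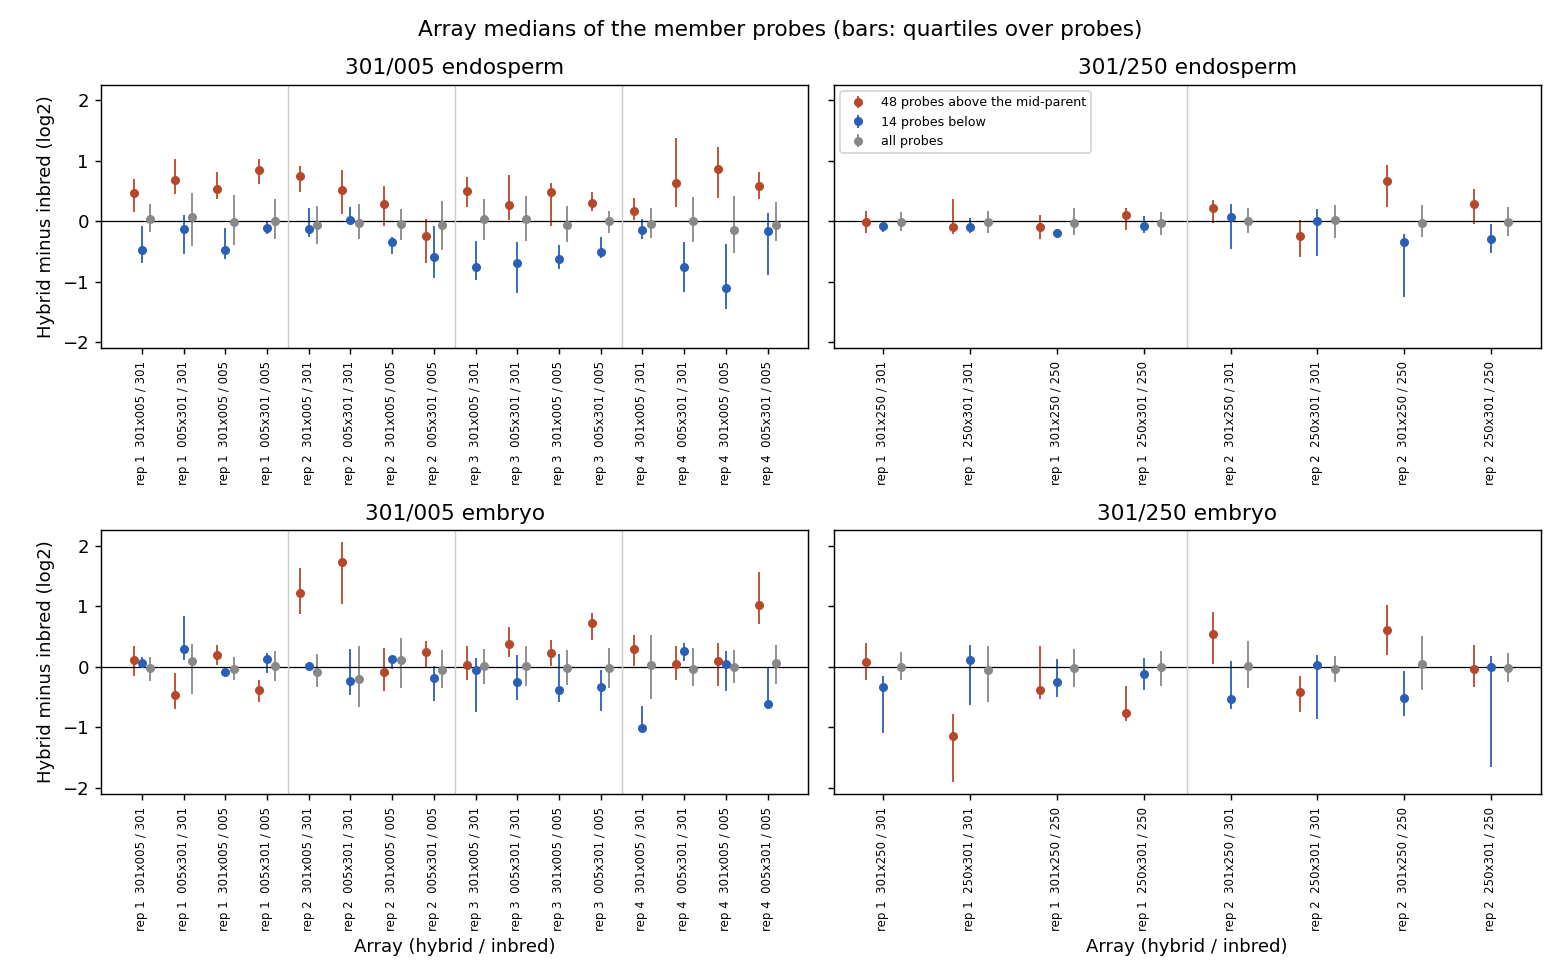
Median log2 ratio of hybrid over inbred on each of the 48 arrays for the 48 upper probes, the 14 lower probes and all probes, with bars for the quartiles over probes and vertical lines between loops. The upper probes lie above 0 on 15 of 16 arrays of 301/005 endosperm, where they were chosen, and swing between -1.15 and 1.73 elsewhere, while all probes stay near 0.

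Resolving each loop into its 4 RNAs shows which sample was high or low. In 301/005 endosperm both hybrids were above both inbreds, by the median of the upper probes, in loops 1, 3 and 4. In loop 2 the hybrid 301x005 was highest at 0.42 relative to the loop mean and inbred 301 lowest at -0.49, while inbred 005 at 0.19 exceeded the hybrid 005x301 at -0.12. Of the 8 loops in the other sets, both hybrids were above both inbreds in 2, the 301/005 embryo loops 3 and 4. The margin was small there, with 301x005 at -0.01 and inbred 301 at -0.02 in loop 3. In loop 4 these were at 0.09 and 0.07, over 7 probes. Both hybrids were below both inbreds in 1 loop, the 301/250 embryo loop 1. In that loop 250x301 was the low RNA, at -0.71. In 301/005 embryo loop 1 the low RNA was 005x301 at -0.37, and in loop 2 it was inbred 301 at -1.14. In 301/250 endosperm loop 1 the 4 medians stayed within 0.10 of each other. Which sample was lowest therefore changed from loop to loop, and hybrids and inbreds both occurred.

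**Figure D5:**
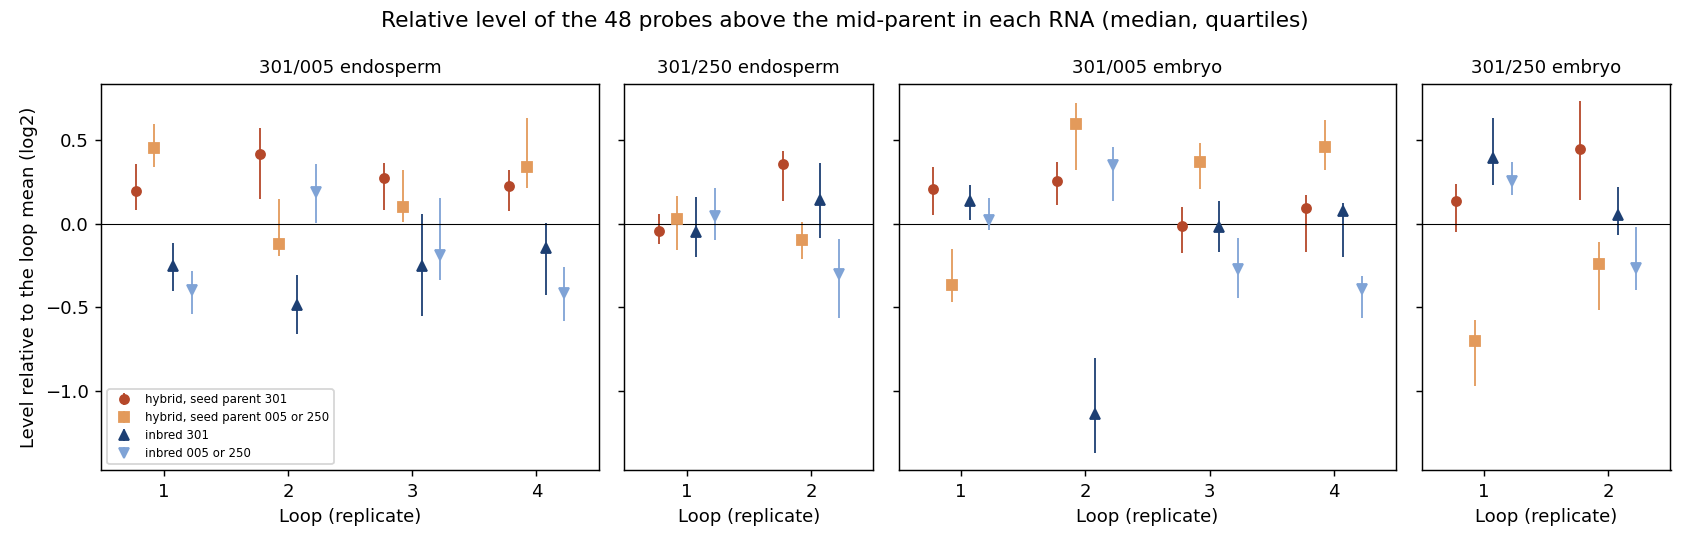
Level of the upper probes in each of the 4 RNAs of a loop, relative to the loop mean (log2), as the median over probes with quartile bars, for hybrids (red circles and orange squares) and inbreds (blue triangles). Single RNAs stand apart in single loops, such as inbred 301 at -1.14 in 301/005 embryo loop 2 and the 250-seeded hybrid at -0.71 in 301/250 embryo loop 1.

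A few probes kept their side in every complete loop of all 4 sets. Above the mid-parent these were 3 of 48, S_CC703, NG10 and S_CCEC5D12. S_CC703 measured 0.61, 0.09, 0.49 and 0.44 in 301/005 endosperm, 0.27 in its 1 complete loop of 301/250 endosperm, 0.11, 0.61 and 0.35 in 301/005 embryo loops 1, 2 and 3, and 0.75 in its 1 complete loop of 301/250 embryos. NG10 measured 0.71, 0.30, 0.05 and 0.77 in 301/005 endosperm and 0.40 in its 1 complete loop of 301/250 embryos. S_CCEC5D12 measured 0.76, 0.28, 0.47 and 0.87 in 301/005 endosperm and 0.23 in its 1 complete loop of 301/250 embryos. Below the mid-parent these were 2 of 14, P_MBD108 and P_CHA116. P_MBD108 was far from 0 in 301/005 endosperm loops 3 and 4 and in 301/005 embryo loop 3 (-0.44), and closer to it elsewhere. The rule fixed the sign in 301/005 endosperm, and the number of complete loops elsewhere ranged from 3 to 6 for these 5 probes. No share over all eligible probes was taken, so the count is a description and cannot be called high or low.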

How the data were processed

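The authors deposited a table of log ratios between the 2 channels of each array, read here as log2 values. The labels state no log base, direction or normalization. The 3592 entries hold 7 controls, which were left out, and arrays have values for 926 to 3430 probes, with array medians of -0.20 to 0.11. Precision is limited by the number of arrays, since no intensities were used. The 62 probes, the gene lists and the tests were chosen with earlier results of these data known.

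Ratios were turned to hybrid over inbred by negating odd replicates. The titles gave the cross, tissue and replicate of each array. Each loop gave a mid-parent, an inbred and a reciprocal difference, and these loop values were fitted for all 12 loops together with limma 3.58.1 in R 4.3.3, with a dye term for the mid-parent difference. Tested probes had 2 or more loops, both dye orientations and 3 or more residual degrees of freedom. The two-sided p-values received the Benjamini-Hochberg adjustment over every tested probe, and 0.05 was the threshold. The procedure was tested on simulated data. Per the labels, a set was pollinated on 1 day, so the arrays of a loop are paired and the block is built into the loop values. In the fit of single arrays the loop correlation was 0.17. Counts of signs use the mean of complete loops. Named are probes with a gene name, the 6 largest of each sign, the 4 most even upper probes with 4 complete loops (no lower probe has 4), calls outside the choosing set, probes with 1 sign in all sets, and those nearest the threshold. Others were named after their values were seen. The 3 matched gene names come from RefSeq's table of assembly Zm-B73-REFERENCE-NAM-5.0. Alternatives covered array centring and scaling, thresholds of 0.30 and 0.40, completeness (also a fit of the 377 probes with a value on every array), dye balance, single loops left out, the source of the spread and fits of single arrays.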

Additional observations from a re-analysis of the deposited data

Results flagged for a closer look

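These 4 single results stood out by fixed rules, and results of this kind can also arise by chance. Opposite signs occurred without a flag too. In 301/250 endosperm, for example, the upper probes FD1 and S_CC69 were below the mid-parent in both loops. They measured -0.19 and -0.21, and -0.29 and -0.48. NH1 was above the mid-parent in every loop of 301/005 endosperm, though only at 0.02 and 0.01 in loops 2 and 3. It was below the mid-parent in every complete loop of 301/005 embryos, at -0.05, -0.02 and -0.03 (mean -0.03). S_CC668 was below the mid-parent in every complete loop of 301/005 endosperm and above it in both complete loops of 301/005 embryos, at 0.38 and 0.58 (mean 0.48). Neither difference between the tissues was tested.

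S_CC796 had 1 loop far from the others in 301/005 endosperm, loop 2 at 0.33, against 0.60, 0.59 and 0.62. QB7 had 1 loop far from the others in 301/005 embryos, loop 1 at 0.01, against -0.29, -0.30 and -0.26.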

How the results depend on the processing

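The choice of probes depended on which loops were used. Leaving out 1 loop of 301/005 endosperm gave 23 to 54 upper and 2 to 9 lower probes, and 4 complete loops gave 23 and 0. Centred arrays gave 55 and 15, of which 46 and 13 were among the 62 probes. With centred arrays, 115 of 163 readings in left-out loops kept the upper side and 8 of 24 the lower side. For the mid-parent difference, fits of single arrays with no replicate block called 1 of the 62 in 301/250 endosperm (P_CHA116), 2 in 301/005 embryos (S_CC796 and S_CCEC5D12) and 4 in 301/250 embryos (V_PCR_d8_f01-r03, P_CHA116, P_F1 and P_J1). With the replicate block they called 0, 0 and 2 (V_PCR_d8_f01-r03 and P_CHA116), and a spread from the 301/250 embryo loops alone called 1 (P_F1). The single inbred call, NG10, became 0 with scaled arrays, with each set's own spread and in fits of single arrays with or without the replicate block, and 0 to 1 when 1 loop was left out. With probes on every array the 1 such call was S_CC619, for the reciprocal difference in 301/250 embryos.

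Upper probes above the mid-parent numbered 20 to 35 in 301/250 endosperm, 32 to 43 in 301/005 embryos and 3 to 24 in 301/250 embryos when 1 loop was left out. Lower probes below it numbered 7 to 9, 4 to 10 and 8 to 10. Probes complete in every loop gave 6 upper and 1 lower in 301/005 embryos and 3 upper in 301/250 embryos, where fewer probes qualify. A dye-corrected estimate, chosen after seeing the data, gave 4 lower in 301/005 embryos and 3 upper in 301/250 embryos, with fewer probes tested. Of 410 values of named probes under alternatives, 32 had the other sign, 0 of them in 301/005 endosperm. The cause of these changes was not tested.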
